A study of Homo sapiens with 10 samples.

Results

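Coding-sequence positions of HEK293T mRNA that carried C-to-U edits with both a free RNA editor and the same editor fused to the ribosome are described here. A position was taken when at least 1 library of cells expressing APOBEC1 alone and at least 1 library of cells expressing Ribo-STAMP listed it, on the same strand. This gave 1796 of the 113981 positions listed in any HEK293T library (1.58%). They made up 20.4% of the 8816 positions listed with APOBEC1 alone and 1.68% of the 106961 listed with Ribo-STAMP. HEK293T is an established human line of embryonic kidney origin with the large T antigen of SV40. Both groups of 3 libraries came from cells with a doxycycline-inducible vector, given 1 ug/mL doxycycline for 72 h, and the labels give no other treatment. The vector encodes APOBEC1 without a fusion partner in the first group (APOBEC1-only) and the Ribo-STAMP fusion in the other. The labels do not say whether replicates came from separate cultures or whether a line was a single clone, so spreads and p-values measure only the differences between these libraries, which may be technical. The levels of the 2 editors were not measured, and cells without an editor were not analysed here. The 4 libraries of the triple-negative breast cancer line MDA-MB-231 took no part in choosing positions and serve below for a look at the same genes. They expressed Ribo-STAMP under 48 h of 1 ug/mL doxycycline, without further treatment (n = 2) or with 48 h of 100 uM CoCl2, a cobalt salt that mimics low oxygen (n = 2).

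APOBEC1 is a cytidine deaminase that turns C into U in RNA. Its best known natural target is the mRNA of apolipoprotein B in the intestine, where an edit creates a stop codon, and it needs cofactor proteins there. In Ribo-STAMP the deaminase rides on the ribosome through its fusion partner RPS2, a small-subunit protein, which brings it close to the mRNA being translated. The free enzyme serves as the background of the editor. A position listed with both constructs had at least 1 edited read with each, and the source of these reads was not tested.

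Each entry of the files is a pair of read counts, the edited reads and all covering reads of a position in an annotated isoform, and a position is listed only if it had at least 1 edited read. No position was listed in all 6 libraries, and the sources used here do not say whether a filter removed any. Coordinates are given as deposited. The submitters' processing notes name hg19 and hg38 without tying a build to a file. Between 2.37 and 4.73% of the HEK293T positions of a library, against 99.96 to 99.97% in MDA-MB-231, fell in coding sequence of the same gene in GRCh38, so no exon and no sequence was assigned to the positions. Reads on the listed isoforms, which stand in for depth, numbered 81592 to 110526 with APOBEC1 alone and 157544 to 203094 in Ribo-STAMP libraries. Markers of MDA-MB-231 were at 0 in the HEK293T libraries (6 of 6 markers), except for 1 read of CAV1 in Ribo-STAMP replicate 2. Of 6 HEK293T markers, NEFL and SALL4 were at 0 in every library, and 2 to 5 of the 6 were at 0 in a HEK293T library. A gene without a listed edit shows no reads here. A marker of either line at 0 can therefore lack edits or lack expression, which was not tested. CKB was higher in MDA-MB-231 (232 to 447 reads) than in HEK293T libraries (0 to 212), and APOBEC1-only replicate 2, with LIN28B alone, had a summed marker level of 2.96 reads per 10000 against 2.04 to 3.71 in MDA-MB-231.

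Most of the shared positions were seen in few libraries. Of the 1796 positions, 1013 (56.4%) were listed in 1 library of each construct, the least that the choice allows, 455 in 3 libraries, 274 in 4 and 54 in 5. Listing in 1 APOBEC1-only and all 3 Ribo-STAMP libraries accounted for 238 positions, and listing in all 3 APOBEC1-only and 2 Ribo-STAMP libraries for 18. The share of positions found with the other construct went up with recurrence. Of APOBEC1-only positions in 1, 2 and 3 libraries, 19.2, 55.8 and 80% were also listed with Ribo-STAMP (1637 of 8544, 135 of 242 and 24 of 30). For Ribo-STAMP positions the shares were 1.24, 3.00 and 5.58%. These counts describe the choice of positions and were not tested.

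**Figure D1:**
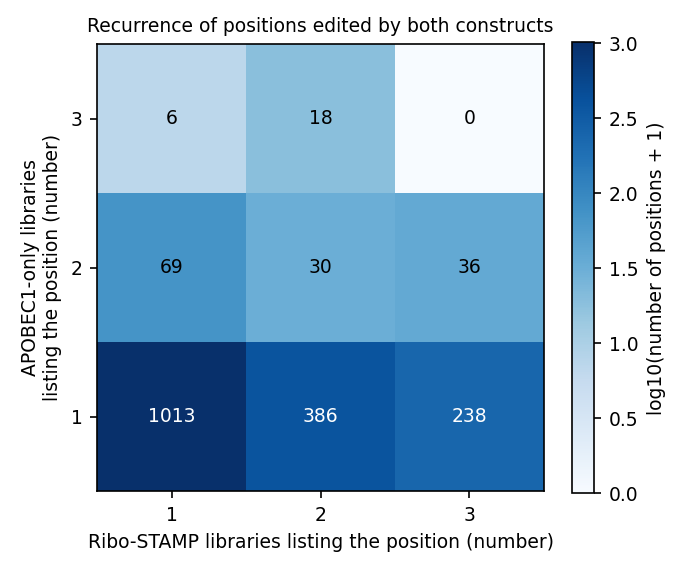
Number of shared positions by how many APOBEC1-only libraries (vertical axis) and Ribo-STAMP libraries (horizontal axis) list them. Colour is log10 of the number plus 1, and the 1013 positions in 1 library of each construct outnumber all other combinations together, while no position is in all 6 libraries.

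Sharing was more frequent among deeply covered positions in every library. Of the positions of APOBEC1-only replicates 1, 2 and 3, 21.2, 22.1 and 22.0% were shared (95% intervals by the exact Clopper-Pearson method were 19.8 to 22.6, 20.6 to 23.6 and 20.4 to 23.5%). Among those with under 20 covering reads the shares were 10.1, 11.9 and 9.40%. Among those with 100 or more they were 40.0, 40.2 and 39.9%. The intervals of these coverage classes do not overlap in any of the 3 libraries. In Ribo-STAMP, 1.95, 2.18 and 2.25% of all listed positions and 3.17, 4.06 and 4.31% of those with 100 or more reads were shared, the interval of replicate 1 in this class (2.95 to 3.41%) lying below those of the others. The median coverage of a shared position was 145 ± 16.9 reads with APOBEC1 alone and 206 ± 15.003 with Ribo-STAMP (SD, n = 3), against 37.3 ± 2.89 and 67.7 ± 13.3 for the other listed positions. Intervals here and below cover counting error only.

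The shared positions held 24.5 ± 0.384% of all edited reads of an APOBEC1-only library and 3.46 ± 0.589% of those of a Ribo-STAMP library (SD, n = 3). The edited reads at these positions numbered 841, 781 and 736 in APOBEC1-only replicates 1, 2 and 3 and 1993, 1636 and 2446 in Ribo-STAMP. A single edited read supported 89.9 ± 1.297% of the shared positions listed in an APOBEC1-only library and 63.0 ± 1.18% in a Ribo-STAMP library. For other positions these values were 98.1 ± 0.526% and 83.4 ± 1.02%. Summed over the libraries of a construct, 1564 of the 1796 positions had 1 edited read with APOBEC1 alone, 832 had 1 with each construct and 147 had at least 2 with each. The positions just inside the choice, with 1 edited read in each construct, had a median edited share of 1.01% with APOBEC1 alone and 0.8% with Ribo-STAMP. Outside it, 6907 positions in 1 APOBEC1-only library and no Ribo-STAMP library had a median of 2.70%. All 105165 Ribo-STAMP positions with no APOBEC1-only listing, in any number of libraries, had 1.98%. With 1 edited read the share is set by coverage. Median coverage of all shared against other positions was 145 against 37.3 reads with APOBEC1 alone and 206 against 67.7 with Ribo-STAMP. These medians therefore do not compare editing at like coverage.

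Edited shares are given in 2 ways, since an unlisted position still has covering reads. Over the entries that list a shared position, 0.483 ± 0.0473% of reads were edited in APOBEC1-only and 0.675 ± 0.108% in Ribo-STAMP libraries (SD, n = 3), a ratio of 1.40, which was 0.844 when entries needed at least 2 edited reads. When every isoform that carries the position was counted in every library that covers it, listed there or not, the shares were 0.182, 0.182 and 0.186% in APOBEC1-only replicates 1, 2 and 3. In Ribo-STAMP they were 0.359, 0.376 and 0.489%, a ratio of means of 2.23. Every Ribo-STAMP library lay above every APOBEC1-only library, and the highest was replicate 3. Position by position the direction was mixed. Of 1652 positions with at least 20 covering reads in each construct, 903 had the higher share with Ribo-STAMP and 747 with APOBEC1 alone, with medians of 0.350 and 0.212%. All these shares use the edited reads that chose the positions, and 1564 of the 1796 had 1 edited read with APOBEC1 alone. The shares and their order describe the choice and were not tested.

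**Figure D2:**
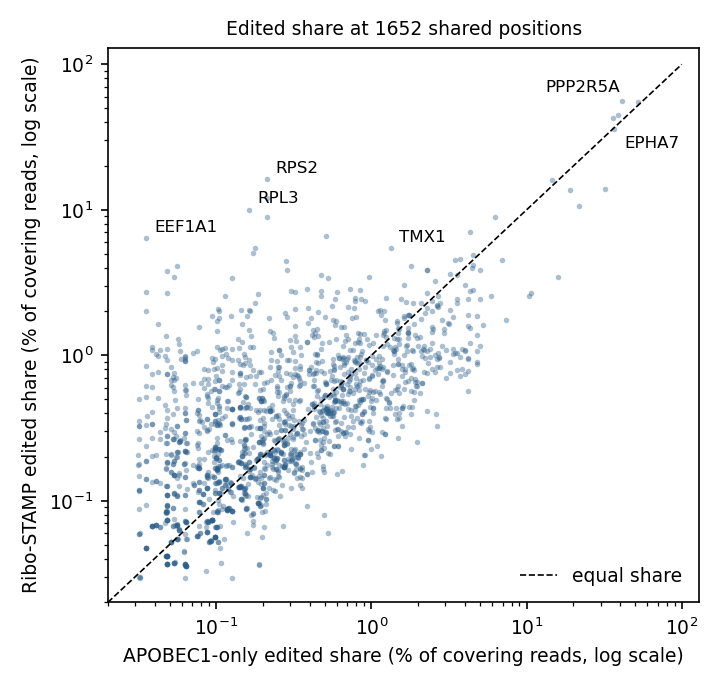
Edited share of each of 1652 shared positions with at least 20 covering reads in each construct, over all isoforms that carry the position, with APOBEC1 alone (horizontal) and Ribo-STAMP (vertical), both on log axes and with libraries summed. A gene name marks the position with the highest Ribo-STAMP share in that gene. Positions at high share such as those marked PPP2R5A and EPHA7 lie near the dashed line of equal share. Those marked RPS2, RPL3 and EEF1A1 lie far above it, which does not hold for every position of these genes.

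Low shares were the rule. Over listed entries, 1566 positions had at least 20 reads in each construct. With APOBEC1 alone 1071 of these were edited in under 1% of reads, 473 in 1 to 5%, 11 in 5 to 10% and 11 in 10% or more. With Ribo-STAMP the numbers were 1015, 515, 24 and 12. The 11 positions at 10% or more with APOBEC1 alone had medians of 32% there and 21.4% with Ribo-STAMP, 6 of them being higher with Ribo-STAMP and 5 lower. Over all 1796 positions, 63 stood at 50% or more in both constructs, and 62 of these had under 20 reads in at least 1 construct.

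Of the positions with at least 20 reads in each construct, 9 were edited in 10% or more of reads with both and 5 with 1 construct, 3 of these in RPS2 and RPL3, described below. Some less covered positions were edited in every read with both constructs. In PHYH, the peroxisomal enzyme that starts phytanic acid breakdown, position chr10:13337588 on the minus strand was edited in 15 of 15, 10 of 10 and 8 of 8 reads of APOBEC1-only replicates 1, 2 and 3. In Ribo-STAMP it was edited in 1 of 1 read of replicate 1 and 15 of 15 of replicate 3, and replicate 2 did not list the isoform. Every read counted at this position carried the C-to-U change. Cells without an editor were not analysed here, so whether this and the other high shares below depend on an editor was not tested. SGPL1, the lyase that degrades sphingosine 1-phosphate, gave the same picture at chr10:72619205 on the plus strand, with 7 of 7 and 6 of 6 reads in APOBEC1-only replicates 1 and 2 and 17 of 17, 3 of 3 and 10 of 10 in Ribo-STAMP. MT-ND5, a complex I subunit that is made by mitochondrial and not by cytosolic ribosomes, was edited at position 12802 of the mitochondrial genome in 20 of 20 reads with APOBEC1 alone and 7 of 7 with Ribo-STAMP. It was 1 of 3 shared positions on mitochondrial DNA, where 20 positions were listed in HEK293T in all.

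The other positions of highest share by construct, named by the rule, sat at intermediate shares in both constructs. PPP2R5A, a regulatory subunit of protein phosphatase 2A, was edited at chr1:212532065 on the plus strand in 9 of 13 and 5 of 14 reads of APOBEC1-only replicates 1 and 2. Its Ribo-STAMP values were 12 of 21, 7 of 12 and 3 of 7, so that the pooled shares were 51.9 and 55.0%. EPHA7, a receptor tyrosine kinase, was edited at chr6:93973630 on the minus strand in 7 of 17, 5 of 20 and 3 of 4 APOBEC1-only reads and in 26 of 65 and 9 of 29 reads of Ribo-STAMP replicates 1 and 2. Its pooled shares were 36.6 and 37.2%. The chromatin factor ATF7IP stood at 38.7% with APOBEC1 alone and 44.7% with Ribo-STAMP (12 of 31 and 17 of 38 reads). The GTPase GPN3 stood at 36.1 and 46.7% (13 of 36 and 14 of 30), with 0 of 3 reads in Ribo-STAMP replicate 1, which did not list the position. ZNG1A, which belongs to a family of near-identical gene copies and is uncertain for that reason, stood at 40.9 and 56.0% (9 of 22 and 14 of 25). In TRMT61B, a mitochondrial RNA methyltransferase, the order was the other way, with 32.0 against 20%. ECPAS, a proteasome adaptor, was edited in 5 of 21, 6 of 31 and 5 of 21 APOBEC1-only reads and in 7 of 41, 3 of 29 and 0 of 24 Ribo-STAMP reads. DZIP3, an E3 ubiquitin ligase, and IFT81, an intraflagellar transport protein, had 27.3 and 16.2% with APOBEC1 alone and 25.6 and 21.4% with Ribo-STAMP. The libraries of the 2 constructs overlapped at each of these positions except ECPAS, where all APOBEC1-only libraries were higher, and GPN3, where the overlap came from the 3 unedited reads of Ribo-STAMP replicate 1 and the libraries that list it were higher with Ribo-STAMP.

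The 54 positions in 5 libraries lay in 48 genes and fell into these same kinds. The missing library was an APOBEC1-only one for 36 and a Ribo-STAMP one for 18. Of 29 positions with a share of 10% or more in the construct with the gap, 18 lacked the whole isoform in the missing library, and 1 was covered there by at least 10 reads. Of 25 positions under 10%, 23 were covered in the missing library. A share of 50% or more in both constructs was found at 14 of the 54 and a share under 5% in both at 23. ENSG00000203832, which has no matching symbol, held 5 of the 54, each at 87.5% or more with APOBEC1 alone on 2 to 8 reads.

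Among the low-share positions in 5 libraries, TMX1, a disulfide oxidoreductase of the endoplasmic reticulum (ER) membrane, had 28 edited reads with Ribo-STAMP. Its position chr14:51721196 on the plus strand was edited in 2 of 160 and 2 of 141 reads of APOBEC1-only replicates 1 and 2, and in 6 of 226, 10 of 193 and 12 of 93 reads of Ribo-STAMP. The lowest Ribo-STAMP library was above the highest APOBEC1-only library. TUBA1B, an alpha-tubulin, had 2 of 629, 0 of 693 and 1 of 760 edited reads at chr12:49522425 with APOBEC1 alone and 4 of 211, 2 of 272 and 16 of 596 with Ribo-STAMP. ENO1, the glycolytic enolase, had 1 of 822, 0 of 687 and 1 of 1074 at chr1:8934896 against 7 of 199, 6 of 359 and 10 of 921. The groups did not overlap in either gene, at positions named for their many edited reads, most of them with Ribo-STAMP. Over all shared positions with at least 20 reads in each construct, 903 of 1652 had the higher share with Ribo-STAMP, a count that also describes the choice. PABPC1, the poly(A)-binding protein, held 2 of the 54 positions, whose pooled shares were 0.216 and 0.299% with APOBEC1 alone and 1.36 and 0.923% with Ribo-STAMP.

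The shared positions lay in 745 genes, which is 24.5% of the 3035 genes listed with both constructs. A single shared position was found in 471 genes, and 76 genes with at least 5 held 822. Genes of the highest coverage held shared positions most often. Among genes listed with both constructs, split by coverage into 4 groups of about the same size, 9.99, 8.99, 21.0 and 58.4% held a shared position, from the lowest to the highest group. In the same order 10.1, 6.08, 10.7 and 30.7% of their APOBEC1-only positions and 2.92, 0.766, 0.888 and 2.71% of their Ribo-STAMP positions were shared. The 15 genes with the most held 345 positions (19.2%), and all 15 were among the 50 genes of highest coverage. Their last place was a tie at 17, decided by edited reads, with ENSG00000203832, a gene of low coverage (mean 2.17 reads). At its 17 shared positions 75.5% of reads were edited with APOBEC1 alone (37 of 49) and 67.9% with Ribo-STAMP (55 of 81). Among them were IARS1 (38), PARP1 (29), HSP90B1 (25), EEF2 (25) and NCL (24). DDB1 had 22, EEF1A1 21 and ENO1 20, while TUBA1B, EIF4G2, CTNNB1 and CSE1L had 18 each and HSP90AB1 17. As a share of their own APOBEC1-only positions, these genes ranged from 43.1% in EEF2 (25 of 58) to 81.8% in CSE1L (18 of 22). Their Ribo-STAMP positions were far more numerous, from 143 in ENO1 to 469 in IARS1. Leaving out APOBEC1-only replicate 1, 2 or 3 lowered the number by over 1.5 times in 8, 5 and 6 of the 15 genes, for example to 22 in IARS1 and to 10 in EEF2 without replicate 3. Leaving out Ribo-STAMP replicate 1 did so in CSE1L, to 11.

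**Figure D3:**
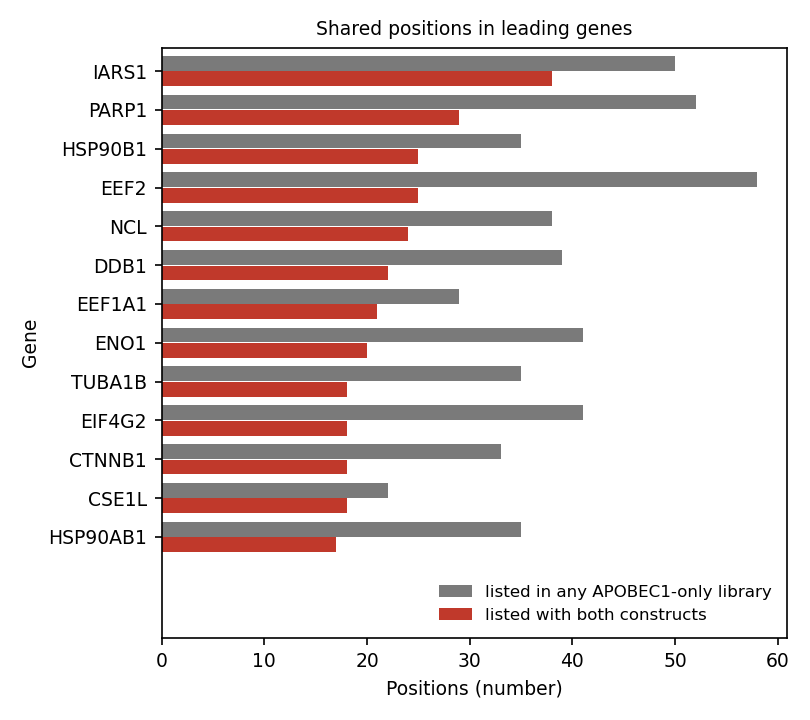
Number of positions in 13 of the genes with the most shared positions. Grey bars count positions listed in any APOBEC1-only library and red bars those also listed with Ribo-STAMP, from 38 of 50 in IARS1 to 17 of 35 in HSP90AB1.

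IARS1, the cytosolic isoleucyl-tRNA synthetase, held its 38 positions between 94973095 and 95051598 of chromosome 9, on the minus strand. The APOBEC1-only replicates listed 10, 12 and 18 of them and the Ribo-STAMP replicates 31, 18 and 26. With APOBEC1 alone 33 of the 38 had 1 edited read over the 3 libraries, and the highest number was 4. With Ribo-STAMP 11 positions had at least 10 edited reads and held 74.1% of the Ribo-STAMP edited reads at the shared positions of the gene. A strong one, chr9:95012167, was edited in 1 of 443 reads of APOBEC1-only replicate 1 and in no read of the other two (463 and 676.5 covering reads, a median over positions). In Ribo-STAMP it was edited in 10 of 964, 5 of 567 and 12 of 1225 reads. The 3 Ribo-STAMP shares were all above the APOBEC1-only ones, at a position picked for its many Ribo-STAMP edited reads. IARS1 also held 4 of the 5 positions with the lowest Ribo-STAMP share relative to APOBEC1-only. Their listed shares of 0.741 to 0.815% with APOBEC1 alone came from a minor isoform with 127 to 237 reads in a library. Over all isoforms these 4 had 0.0630 to 0.189% with APOBEC1 alone and 0.0364 to 0.0365% with Ribo-STAMP, from 1 edited read each in Ribo-STAMP.

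**Figure D4:**
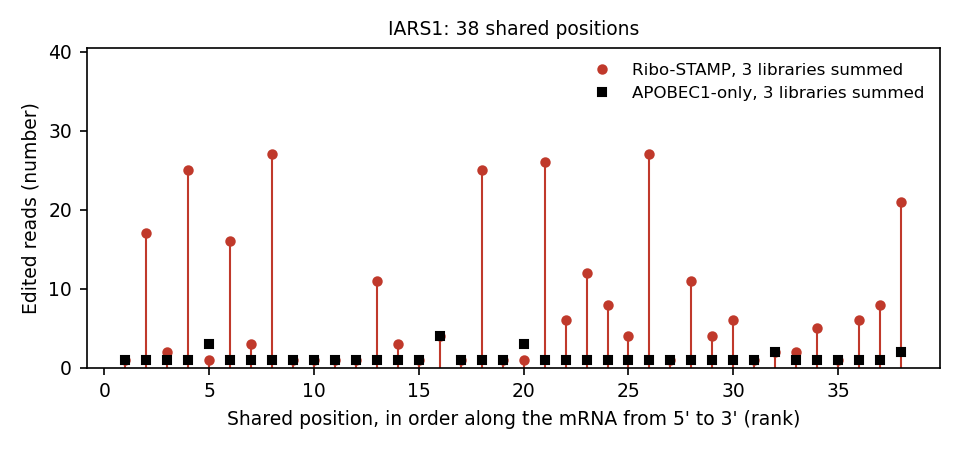
Edited reads at each of the 38 shared positions of IARS1, in order along the mRNA from 5′ to 3′, summed over the 3 libraries of Ribo-STAMP (red circles with stems) and of APOBEC1-only (black squares). APOBEC1-only values stay at 1 to 4 reads while Ribo-STAMP values reach 27.

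In other leading genes the strongest position, the one with the most Ribo-STAMP edited reads, was singled out after its values were seen. A higher Ribo-STAMP share there follows largely from that pick. HSP90B1, the HSP90 chaperone of the ER, had 1 of 783, 0 of 673 and 0 of 419 edited reads at chr12:104328059 with APOBEC1 alone and 24 of 1025, 18 of 824 and 51 of 828 with Ribo-STAMP. EEF2, the elongation factor that moves the ribosome along the mRNA, had 0 of 368, 1 of 333 and 0 of 1088 at chr19:3980040 against 12 of 289, 8 of 283 and 41 of 913. In these 2 genes every Ribo-STAMP library lay above every APOBEC1-only library, at positions picked for their many Ribo-STAMP edited reads. PARP1, which senses DNA breaks, reached 1.35% with Ribo-STAMP at its strongest position and DDB1, an adaptor of CUL4 ubiquitin ligases, 2.08%. CTNNB1 (beta-catenin) reached 1.08%, HSP90AB1 (cytosolic HSP90) 0.836%, EIF4G2 (a translation initiation factor) 0.573%, NCL (nucleolin) 0.504% and CSE1L (a nuclear export receptor) 0.395%. The strongest APOBEC1-only share of any shared position in the leading genes named here, over all isoforms, was 0.522%, in CTNNB1. More of the shared positions of each named leading gene had the higher share with Ribo-STAMP than with APOBEC1 alone, from 10 of 18 in EIF4G2 and in CSE1L to 20 of 21 in EEF1A1. These directions describe positions chosen with both constructs and were not tested.

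Over listed entries with at least 100 reads in each construct, the 5 positions with the highest Ribo-STAMP share relative to APOBEC1-only lay in EEF1A1, RPS2, RPL3 and RPL4, genes of the translation machinery. EEF1A1, which brings aminoacyl-tRNA to the ribosome, had 0 of 903, 0 of 836 and 1 of 1083 edited reads at chr6:74227596 with APOBEC1 alone. With Ribo-STAMP it had 8 of 259, 18 of 478 and 109 of 1388, and a second position, chr6:74228718, had the same APOBEC1-only reads and 7 of 259, 12 of 476 and 39 of 1387. RPS2, the ribosomal protein that is fused to the deaminase, had 0 of 96, 0 of 73 and 1 of 300 edited reads at chr16:2012106 with APOBEC1 alone. In Ribo-STAMP 9 of 60, 9 of 75 and 39 of 214 were edited, a share of 16.3% in all. Its position chr16:2012172 had 1 of 96, 0 of 73 and 0 of 300 against 7 of 60, 9 of 75 and 26 of 214, and chr16:2012168 had 0 of 96, 0 of 73 and 1 of 300 against 8 of 60, 3 of 75 and 20 of 214. The fourth RPS2 position, chr16:2012541, had 1 edited read in each construct. Reads of the RPS2 part of the construct and of the gene itself cannot be told apart in these files. RPL3, a large-subunit protein, had 1 of 439 reads in APOBEC1-only replicate 3 at chr22:39709226 and 0 of 179 in replicate 1, while replicate 2 did not list the isoform. Its Ribo-STAMP values were 5 of 49, 1 of 85 and 48 of 405. RPL4, another large-subunit protein, had 1 of 348 in APOBEC1-only replicate 3 at chr15:66795805 and 26 of 322 in Ribo-STAMP replicate 3, with no edited read among 56 and 100 in the other Ribo-STAMP replicates. At the positions chosen by this relative share in EEF1A1, RPS2 and RPL3, all Ribo-STAMP libraries lay above all APOBEC1-only libraries with coverage. This follows largely from the choice, and in RPL3 it rested on 1 edited read of 85 in Ribo-STAMP replicate 2. The RPL4 position rested on replicate 3. Over all isoforms the order differs, and the strongest positions of TUBA1B, EEF2 and HSP90B1 stood at 3.803, 4.11 and 3.47% with Ribo-STAMP and 0.0480, 0.0559 and 0.0533% with APOBEC1 alone, against 5.44 and 0.179% for RPL4. Coverage of EEF1A1, RPS2, RPL3 and RPL4 was highest in replicate 3 of both constructs, and the part of this in the edited share was not tested. EEF1A1, RPS2, RPL3 and RPL4 have near-identical processed pseudogenes, and how reads were assigned among them is not given in the sources used here.

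The 11 lists of genes held 599 of the 1796 shared positions. In these lists the share of APOBEC1-only positions that were shared ranged from 28.0% for the cytoskeleton to 53.1% for nuclear transport, against 20.4% over all genes. Translation factors held 96 shared positions in 10 of 14 listed genes, of which EEF2, EEF1A1, EIF4G2 and PABPC1 (16) held most. Aminoacyl-tRNA synthetases held 73 in 13 of 15 genes, with 38 in IARS1 and 8 in EPRS1, the glutamyl-prolyl enzyme. Ribosomal proteins held 19 in 6 of 11 genes, and their pooled listed share was 0.365% with APOBEC1 alone and 4.84% with Ribo-STAMP, against 0.479 and 0.669% over all shared positions. Without RPS2 the shares of the list were 0.358 and 3.03%. Of the 129 Ribo-STAMP edited reads behind the latter, RPL3 gave 82 and RPL4 38, so the value mostly describes these genes and not the list. The list of cytosolic chaperones held 92 in 16 of 18 genes. This list also includes the mitochondrial chaperones HSPD1 with 9, HSPA9 with 8 and TRAP1 with 3, so its count is not of cytosolic chaperones alone. All 8 subunits of the CCT chaperonin, which folds actin and tubulin, had at least 2, led by CCT4 with 11. ER chaperones held 55 in 7 of 9 genes, among them HSPA5 (BiP) with 9 and the lectin chaperone CANX with 7, while CALR and HYOU1 held none.

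Spliceosome and hnRNP genes held 52 shared positions in 12 of 14 genes, with 9 in SF3B1, a branch-site subunit, and 8 each in SF3B3 and HNRNPK. Replication and cell cycle genes held 73 in 9 of 13, with 29 in PARP1, 16 in the helicase subunit MCM4 and 15 in TOP2A, a topoisomerase. Glycolysis held 42 in 8 of 14, and these were mostly in ENO1 (20) and PKM (8), with none in ALDOA or GPI. Mitochondrial energy genes held 28 in 6 of 12, with 8 and 7 in the ATP synthase subunits ATP5F1A and ATP5F1B. Cytoskeletal genes held 35 in 5 of 11, from TUBA1B (18), ACTB (8), ACTG1 (5), PLS3 (3) and MAP1B (1). Nuclear transport held 34 in 4 of 8, of which CSE1L had 18 and the importin KPNB1 13. Over all listed genes, 745 of 7004 held a shared position. The lists hold strongly covered genes, so their counts carry the relation to coverage given above.

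Shared positions were more often close to other edits in the sum over all genes, but not at every coverage. A different Ribo-STAMP position lay within 10 bases of 59.3% of the shared positions (1065 of 1796, exact 95% interval 57.0 to 61.6%), of 39.2% of positions listed only with Ribo-STAMP (38.9 to 39.5%) and of 31.4% of those listed only with APOBEC1 alone (30.4 to 32.5%). In the highest of the 4 coverage groups of genes the values were 69.4% (67.0 to 71.8%), 58.5% (58.1 to 58.9%) and 53.4% (51.7 to 55.1%). In the lowest 3 groups, from low to high, 2.04, 13.5 and 26.4% of shared positions had such a neighbour, against 7.88, 16.6 and 28.8% of those listed only with Ribo-STAMP and 3.02, 8.49 and 22.5% of those listed only with APOBEC1 alone. Shared positions were thus above the Ribo-STAMP positions in 1 of 4 groups. Coverage within a group still differed between the 3 kinds and its part was not tested.

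To measure editing independently of the choice, each library was held out in turn, positions were chosen by the same rule from the other 5, and the edited share at those positions was read in the held-out library. APOBEC1-only replicates 1, 2 and 3 held 233, 204 and 183 edited reads among 290158, 300300 and 253618 covering reads, which is 0.0803, 0.0679 and 0.0722%. Ribo-STAMP replicates held 1472, 1252 and 1889 among 441062, 370310 and 397742, which is 0.334, 0.338 and 0.475%. Every Ribo-STAMP library was above every APOBEC1-only library. The means were 0.0735 ± 0.00629% and 0.382 ± 0.0803% (SD, n = 3), a difference of 0.309 percentage points and a ratio of 5.20 (exact permutation p = 0.1, two-sided, the smallest that 3 against 3 libraries allow). The constructs were read at different sets of positions, 967 to 1002 and 1353 to 1441 in number. At positions listed only with the construct of the held-out library, the means were 0.0219 ± 0.00146% and 0.276 ± 0.0139%. A Ribo-STAMP excess was thus not particular to the shared positions. At the shared positions the ratio was larger among those of low share. It was 7.77 without positions at 50% or more in the choosing libraries, 10.5 without those at 10% or more and 10.3 over positions with at least 20 reads. A plain mean of the share over positions, which gives thinly covered positions the same weight, was 2.90 ± 0.416% in APOBEC1-only and 2.79 ± 0.242% in Ribo-STAMP libraries (exact permutation p = 0.7). Positions with under 20 reads in the held-out library had shares of 24.4 ± 2.85% and 12.1 ± 3.30%. Isoforms without an entry in the held-out library left out 223, 244 and 319 of 1219, 1246 and 1286 chosen positions in APOBEC1-only and 51, 54 and 28 of 1404, 1495 and 1401 in Ribo-STAMP.

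Whether a position came back in a held-out library differed with what the other 5 had shown. Among positions with 100 or more reads in a held-out APOBEC1-only library, 8.01 ± 0.358% were listed if both constructs had listed them (SD, n = 3). The value was 3.20 ± 0.171% if only APOBEC1-only libraries had, and 1.38 ± 0.111% if only Ribo-STAMP libraries had. In a held-out Ribo-STAMP library these values were 46.7 ± 2.41, 36.7 ± 0.899 and 10.3 ± 0.767%, the last being for positions listed only in APOBEC1-only libraries. The 3 libraries of a construct kept the 3 kinds apart without overlap. The edited share followed the same order, with 0.0284 ± 0.00387, 0.0123 ± 0.000828 and 0.00496 ± 0.000249% in APOBEC1-only and 0.338 ± 0.0873, 0.262 ± 0.0163 and 0.0450 ± 0.00540% in Ribo-STAMP. Within this class the positions seen by both constructs were also the deepest, with median coverage of 300 to 303 reads with APOBEC1 alone and 289 to 344 in Ribo-STAMP, against 192 to 230 and 197 to 230 for the other kinds. A position seen by both constructs rests on at least 2 edited reads, so listing was also compared at equal numbers of Ribo-STAMP edited reads in the choosing libraries. With 1 such read and at least 50 covering reads, 27.1, 22.2 and 25.7% of the shared positions came back in Ribo-STAMP replicates 1, 2 and 3, against 21.3, 17.4 and 18.5% of those seen with Ribo-STAMP alone. Median coverage was 204, 186 and 194.5 reads for the former and 125, 100.5 and 103 for the latter, and its part in this difference was not tested. With 2 such reads the values were 47.9, 39.8 and 47.7% against 40.0, 34.1 and 34.3%. With 3 or more they were 73.1, 69.7 and 71.8% against 68.5, 63.7 and 60.8%. With 2 reads and with 3 or more, the exact intervals overlapped in replicates 1 and 2 but not in replicate 3.

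**Figure D5:**
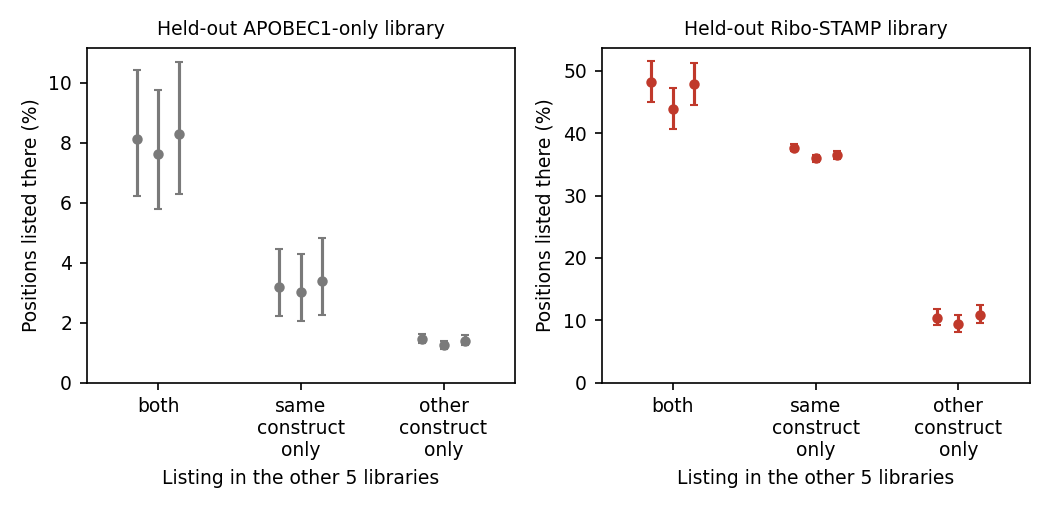
Percentage of positions with at least 100 reads that were listed in a library held out of the choice, by how the other 5 libraries listed them. Points are the 3 held-out libraries of each construct with exact 95% intervals, near 8% for positions seen by both constructs in APOBEC1-only and 44 to 48% in Ribo-STAMP, above the other kinds in each panel.

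Of the 745 genes with shared positions, 692 (92.9%) were also listed in MDA-MB-231 with Ribo-STAMP. This was close to the 92.8% of other genes listed with both constructs (2124 of 2290), and 87.5% of all genes listed in HEK293T (6126 of 7004) were listed there. For the rates below, the other genes are all those listed with Ribo-STAMP in HEK293T without shared positions. They include genes not listed with APOBEC1 alone. Their median coverage in an MDA-MB-231 library was 44.5 to 56 reads, against 99.75 to 180.5 for genes with shared positions. In MDA-MB-231 the median gene with shared HEK293T positions had 24.0 and 24.0 edited reads per 100 covering reads in the untreated replicates and 25.4 and 25 in the CoCl2 replicates, against 20, 20.4, 23.8 and 23.2 for the other genes. Edited reads are summed over positions, so this rate can pass 100. In the third of 4 coverage groups of genes the contrast was 35.1, 32.5, 36.7 and 35.2 against 18.8, 20, 22.6 and 22.2. The median number of listed positions per gene in this group was 34, 27.5, 30 and 28 against 16, 16, 18 and 16, and its part in the rate was not tested. In the group of highest coverage the rate was 18.3 and 15.03 against 13.1 and 13.0 in untreated cells, and 14.9 and 14.1 against 15.3 and 14.6 with CoCl2, so the order was not the same in all libraries. No test was made with 2 libraries a group and a rate that depends on coverage. Single genes differed widely. IARS1 had 115 and 129 edited reads per 100 in untreated and 97.4 and 152 in CoCl2-treated cells. These stood at percentiles of 98.5, 98.7, 94.8 and 99.1 among the genes of each library that were also listed with Ribo-STAMP in HEK293T. EEF1A1 had 2.56 and 2.17 and ENO1 1.04 and 0.975 in untreated cells, at percentiles of 1.28 and 0.772 and of 0.201 and 0.169.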

How the data were processed

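Per the labels, PacBio long-read libraries of polyadenylated RNA were made from HEK293T cells (APOBEC1-only and Ribo-STAMP, 3 libraries each) and MDA-MB-231 cells (4 libraries). The authors deposited, per library, a pair of whole-number read counts (edited and covering reads) for each edited coding-sequence position and isoform. The files lack a header, so this was read from the values, the first of which never exceeds the second. Aligner, edit caller, filters and strand handling: not given in the sources used here. Position is the third column of the deposited files. In MDA-MB-231 untreated replicate 1 it was a C in the GENCODE 29 transcript for 100% of 135612 entries, and the HEK293T files were read the same way.

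Positions were matched by chromosome, position and strand. Coverage of an unlisted position was the median coverage of its isoform in that library. For the 3 against 3 comparison of held-out edited shares an exact permutation test over libraries was used, two-sided. The calculation was tested on simulated data with constant coverage and a single isoform. That setting cannot test how coverage of unlisted positions was filled or how missing isoforms were left out. All other values describe the choice of positions and got no test. Intervals are exact (Clopper-Pearson, 95%). Python 3.11.15, pandas 2.3.3 and scipy 1.17.1 were used.

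The positions, the 11 gene lists and the tests were chosen with earlier results of these data known. Chosen for naming were the 15 genes with the most shared positions, 12 of the positions in the most libraries, the 8 of highest share in each construct (at least 20 reads), the 5 of highest and of lowest relative share (at least 100 reads in each construct) and list genes with at least 3 shared positions. Genes named with fewer, the strongest position of a gene and further positions of RPS2, PABPC1 and ENSG00000203832 were picked after their values were seen. Alternatives covered minimum coverage, edited reads, an upper limit on share, recurrence, averaging, pairing by replicate number and leaving out each library. Those with a share under 10%, and the listing without positions in all 5 other libraries, were added after seeing the data. Some results for genes that the rule chose are not reported here.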

Additional observations from a re-analysis of the deposited data

How the results depend on the processing

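The number of shared positions was 1796 in all, 1558 with entries of at least 20 reads, 1716 with entries under 50% edited, 79 with at least 2 edited reads in a library and 84 with at least 2 libraries of each construct. Leaving out each library in turn gave 1219 to 1495. The share of APOBEC1-only positions also listed with Ribo-STAMP was 20.4% over all entries, 24.6% with at least 20 reads, the same when shares were also under 10% (added after seeing the data), 28.3% with at least 2 edited reads, and 15.9 to 21.3% with a library left out. The ratio of listed edited shares, Ribo-STAMP over APOBEC1-only, was 1.40 and turned to 0.844 with at least 2 edited reads. It was 1.32 to 1.59 with a library left out. The held-out difference of 0.309 percentage points was -0.110 when shares were averaged over positions (exact permutation p = 0.7) and 0.263 to 0.431 with a library left out. Fewer reads or libraries set the lower counts by construction, and the cause of the other changes was not tested.

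With the replicate number as a block, the held-out difference was 0.309 (exact permutation p = 0.25, the smallest that 3 pairs allow). Over 428 genes, deviations of coverage from the group mean correlated by 0.159, 0.312 and 0.481 between libraries of the same number, but those of edited reads by -0.00124, 0.116 and 0.2504, and not every library correlated best with its own number. The numbers were therefore not taken as pairs.

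At all 15 leading genes the count moved by over 1.5 times when 2 edited reads or 2 libraries of each construct were asked for, and at none with the limits on coverage or share. Leaving positions listed in all 5 other libraries out of the held-out listing gave 11.3 ± 0.826% against 11.2 ± 0.855% in APOBEC1-only and 39.9 ± 1.87% against 39.8 ± 1.81% in Ribo-STAMP. At this depth, a single edited read supported 89.9% of the shared positions listed in an APOBEC1-only library and 63.0% in a Ribo-STAMP library.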
